A study of Mus musculus with 77 samples.

Results

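The microRNA (miRNA) repertoires of the BNST (bed nuclei of stria terminalis, a forebrain region that regulates anxiety) and of blood were compared in undefeated control mice. There were 5 BNST libraries and 5 blood libraries, 10 of the 77 samples of the series. The 10 were chosen by their labels as the C57BL/6Crl (B6; C57BL/6NCrl in the study's methods) controls with miRNA data. All were males of 8 weeks that served as controls for chronic social defeat stress (CSDS). They were housed beside a neighbour, new each day, behind a perforated divider without physical contact. Tissue was taken 6 to 8 days after the last CSDS session. In the study's timeline a social avoidance test and a forced swim test came between CSDS and tissue collection. Each BNST library held the small RNA that came down with Argonaute 2 (AGO2) from a pool of 3 BNSTs (pools 1 to 5), sequenced from TruSeq Small RNA libraries. Each blood library held the small RNA of trunk blood from 1 mouse (mice 1 to 5), without AGO2 capture, sequenced from NEXTflex small RNA v3 libraries. The AGO2 libraries were made from additional animals, and no label ties a pool to a blood mouse. Tissue, AGO2 capture and library kit differed together, so their parts in any difference cannot be told apart, and differences in level between the tissues were described without a test.

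A miRNA is cut from a hairpin whose 5′ and 3′ arms (5p and 3p) can each give a mature strand. The strand is loaded into an Argonaute protein and guides it to messenger RNAs that pair with its seed, bases 2 to 8 from its 5′ end, so miRNAs with one seed form a family with overlapping targets. Brain tissue is known for the let-7 family, miR-124, miR-9, miR-128 and the large imprinted miRNA cluster of the Dlk1-Dio3 locus, and blood for the red cell miRNAs miR-451a and miR-144.

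Sequences that carry the main contrasts are shown here from RefSeq (GRCm38.p6), in lower case with the seed in capitals. The first set is the let-7 seed family, which shares a single seed and whose members were ordered differently in the 2 tissues.
let-7e-5p: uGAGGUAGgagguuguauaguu
let-7d-5p: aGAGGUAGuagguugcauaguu
let-7b-5p: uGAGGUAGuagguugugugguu
let-7g-5p: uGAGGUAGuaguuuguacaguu
let-7i-5p: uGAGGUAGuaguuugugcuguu
miR-98-5p: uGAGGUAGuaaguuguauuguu

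The second set holds miRNAs with the most BNST-weighted levels, including 2 of the Dlk1-Dio3 locus.
miR-204-5p: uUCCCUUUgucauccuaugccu
miR-1298-5p: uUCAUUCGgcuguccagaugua
miR-136-5p: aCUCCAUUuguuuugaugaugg
miR-541-5p: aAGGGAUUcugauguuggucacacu

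The third set holds the most blood-weighted miRNAs; the last 3 belong to the miR-17/92 cluster or its paralogous cluster and resemble each other beyond the seed.
miR-451a: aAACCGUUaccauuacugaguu
miR-144-5p: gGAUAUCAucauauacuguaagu
miR-15b-5p: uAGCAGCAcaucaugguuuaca
miR-18a-5p: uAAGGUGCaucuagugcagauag
miR-20a-5p: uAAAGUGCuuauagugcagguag
miR-106b-5p: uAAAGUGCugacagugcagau

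On GRCm38.p6, let-7e-5p lies at chr17:17830366-17830387 (plus strand), in an intron of the protein-coding gene Spaca6, 172 bases after miR-99b-5p and 451 bases before miR-125a-5p (start to start). miR-204-5p lies at chr19:22750610-22750631 (plus strand) in an intron of Trpm3, and miR-1298-5p at chrX:147064918-147064939 (plus strand) in an intron of the serotonin receptor gene Htr2c. miR-136-5p and miR-541-5p lie on the plus strand at chr12:109595331-109595352 and chr12:109742422-109742446. miR-144-5p and miR-451a lie 176 bases apart, at chr11:78073010-78073032 and chr11:78073186-78073207 (plus strand), with no other annotated gene on that strand. miR-15b-5p lies at chr3:69009775-69009796 (plus strand) in an intron of Smc4, miR-106b-5p at chr5:138165787-138165807 (minus strand) in an intron of Mcm7, and miR-18a-5p and miR-20a-5p at chr14:115043867-115043889 and chr14:115044183-115044205 (plus strand) in an exon of the host RNA Mir17hg.

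The read totals ranged from 3173294 to 4565205 in the BNST pools and from 7392890 to 9038979 in the blood mice. The BNST data held 772 miRNA names after copies were summed, and the blood data 299. Of these, 224 names were in both, which is 74.9% of the blood names and 29.0% of the BNST names. The shared names took 47.5% to 51.1% of the reads of a BNST pool but between 99.96% and 99.97% of the reads of a blood mouse. All levels below are given as RPM, the reads of a name in every 1000000 reads on the 224 shared names, unless a share of all reads of a library is named. These shares are fixed-sum quantities. The median of the 224 log2 differences (BNST minus blood) was 1.63, or 3.10-fold towards BNST. How much of it came from the fixed sum was not tested. Differences relative to that median are given where they change a count or a call. Intervals were not given for single shares; at these read totals counting error was small except for names with few reads, and mean read counts are given beside named differences that rest on under 20 reads on average in a tissue.

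The 2 data sets covered the hairpin arms unequally. Of the BNST names, 366 were 5p, 363 were 3p and 43 had no arm in the name. Of the blood names used here, 254 were 5p, 17 were 3p and 28 had none. Names of 3p strands took 49.7% to 52.7% of the BNST reads and 0.0600% to 0.229% of the blood reads. The names with no arm, miR-451a among them, took 26.5% to 37.96% of the blood reads and 0.125% to 0.141% of the BNST reads. The comparison of shared names was therefore one of 203 5p names, 7 3p names and 14 names with no arm, and 3p strands of BNST are described on their own further on.

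**Figure D1:**
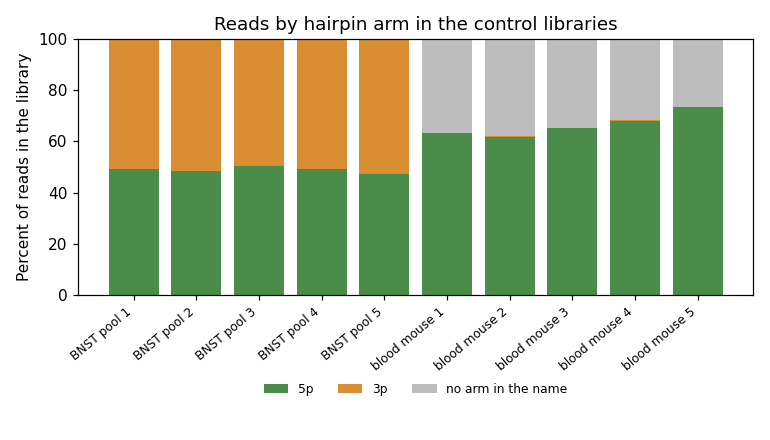
Percent of reads (vertical axis) by hairpin arm in each of the 10 control libraries; each bar is 1 library and its segments add up to its reads. The 3p segment fills 49.7% to 52.7% of every BNST pool and is at most 0.229% in every blood mouse.

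Ranks differed far more between the tissues than within them. Spearman's rho over the 224 shared names was 0.978 to 0.983 between BNST pools (10 pairs) and 0.950 to 0.985 between blood mice (10 pairs), but 0.376 to 0.495 between a pool and a mouse (25 pairs, median 0.472). Names of 1 library share its depth and total, so these values are descriptions. Among the 134 names with a mean of at least 20 reads in both tissues the median between tissues was 0.372. Of the 20 highest shared names of each tissue, 8 were the same. The reads were also spread differently: the 10 highest names held 46.8% to 47.8% of all BNST reads and 86.7% to 87.5% of all blood reads.

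A name was called higher in a tissue when its 5 libraries did not overlap with the other 5 and its mean log2 share differed by at least 2 (4-fold). By this rule 101 of the 224 names were higher in BNST AGO2 (45.1%), 33 were higher in blood (14.7%) and 90 were neither (59.8% called in either direction). The groups did not overlap for 172 names (76.8%). Taken relative to the median difference, 71 names were higher in BNST (31.7%) and 65 in blood (29%), 60.7% in all, so the BNST part of the calls went from 75.4% to 52.2%; 34 names changed sign, none of them among the 134 called. Some calls rested on few reads: 32 of the 101 had a mean under 20 reads in blood, and 16 of the 33 had one under 20 reads in BNST. The log2 differences ran from -10.40 for miR-451a to 12.06 for miR-204-5p.

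**Figure D2:**
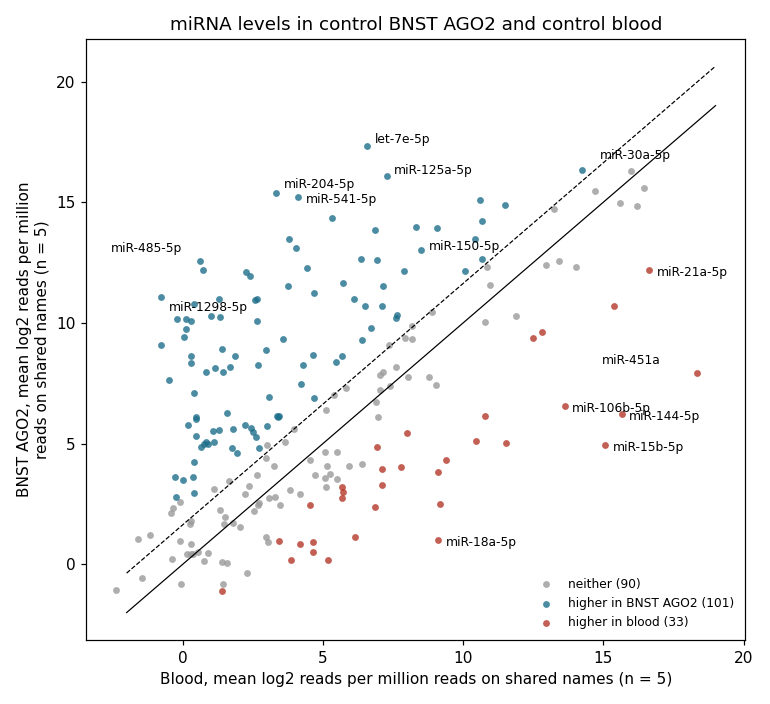
Mean log2 RPM of the 224 shared names in blood (horizontal axis) and BNST AGO2 (vertical axis), n = 5 libraries each; each point is a miRNA name, coloured by call, the solid line marks equal shares and the dashed line the median difference of 1.63. The 101 names higher in BNST lie up to 12.06 log2 units above equality (miR-204-5p) and the 33 higher in blood down to -10.40 (miR-451a).

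The blood repertoire was led by red cell miRNAs. miR-451a, a red cell miRNA that matures through AGO2 itself instead of Dicer, stood at 364384, 376882, 344587, 315520 and 262261 RPM in blood mice 1 to 5, which was rank 1. In BNST pools 1 to 5 it stood at 175, 271, 258, 281 and 252 RPM, rank 91, so the lowest blood mouse was far above the highest pool. The log2 difference was -10.40 ± 0.15 (SE, n = 5 and 5). Its neighbour miR-144-5p, from the same primary transcript, was at 38873 to 57199 RPM in blood (rank 6) and 58.1 to 108 RPM in BNST (rank 109), with a log2 difference of -9.42 ± 0.20. Both members of the pair were low in BNST but had reads in every pool.

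Of the 7 red cell names listed, 4 were in both data sets, 2 in the BNST data only and 1 in neither. By the 4-fold rule 3 of the 4 shared names were higher in blood and none in BNST, with a median log2 difference of -6.00 against 1.63 over all shared names. The exception was miR-486a-5p, at a log2 difference of -1.03 ± 0.10 (216 RPM in BNST, 438 RPM in blood), whose near-identical copy miR-486b-5p was called, at -2.57 ± 0.17; reads of these copies could be split between the names. Relative to the median, all 4 were called higher in blood. Together the red cell names took 31.8% to 42.2% of all reads in a blood mouse and 0.0386% to 0.0458% in a BNST pool. Whether blood left in the tissue gave these BNST reads was not tested.

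Members of the miR-17/92 cluster and its paralogs, which are known from proliferating and blood-forming cells, leaned towards blood. All 8 shared members had the higher mean share in blood, 6 of them by the 4-fold rule, with a median log2 difference of -4.65; relative to the median of all names all 8 were called. miR-18a-5p stood at 529 to 612 RPM in blood and at 2.5, 3.7, 0, 1.3 and 6.2 RPM in pools 1 to 5, a mean of 5 reads in BNST, at a log2 difference of -8.10 ± 0.76. miR-106b-5p stood at 10983 to 14257 RPM in blood and at 86.3 to 109 RPM in BNST, at -7.04 ± 0.09. Its cluster neighbour miR-93-5p, which lies 213 bases away, differed less, by -4.66 ± 0.05 (42387 RPM in blood, 1681 RPM in BNST), so that members of one primary transcript were not shifted by the same amount. The list as a whole took 5.95% to 6.25% of all blood reads and 1.09% to 1.26% of all BNST reads, the latter mostly miR-92a-3p (a mean of 34388 reads), a 3p name that was not among the blood names.

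miR-15b-5p, a cell cycle regulator of the miR-15/16 family, was the second most blood-weighted name after miR-451a. It stood at 39184, 37342, 41755, 30250 and 26455 RPM in the 5 mice and at 27.4 to 33.3 RPM in the 5 pools, at a log2 difference of -10.12 ± 0.13 (rank 9 in blood, 137 in BNST). The recorded makeup of the family differed between the tissues. It depends on miR-16-5p, whose BNST reads are listed under 2 numbered copies, with means of 17 and 14.2 reads. That name made up 0.89% of the family in BNST and 1.36% in blood. How reads that fit several loci were assigned was not tested, so the percentages below are uncertain. In blood miR-15b-5p made up 80.8% ± 3.75 (SD, n = 5) of the 6 shared names with the seed AGCAGCA, whereas in BNST it made up 1.68% ± 0.24 and was outranked by miR-15a-5p (42.9% ± 2.91) and miR-497a-5p (34.2% ± 2.93). On the share scale the family held members called in opposite directions, miR-497a-5p higher in BNST (2.92) and miR-15b-5p, miR-15a-5p and miR-16-5p higher in blood, and of the 20 seeds with 2 or more matched shared names only that of miR-7a-5p and miR-7b-5p did so too. This depended on the scale. Relative to the median, miR-497a-5p stood at 1.28 and was not called, whereas 4 seeds held members called in opposite directions: those of let-7, miR-7, miR-30 and miR-190.

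miR-21a-5p, a widely expressed miRNA of growth and inflammation, ranked 2 in blood (89571 to 111987 RPM) and 32 in BNST (3854 to 4960 RPM), with a log2 difference of -4.44 ± 0.09. Further blood-weighted names among the 8 most different were miR-378c (-6.66 ± 0.24, a mean of 10.8 reads in BNST), miR-20a-5p (-6.51 ± 0.21) and miR-374b-5p (-5.36 ± 0.21). For miR-378c, its relative by name miR-378a-3p had a mean of 25556 reads in BNST and was not among the blood names. How reads were divided between the miR-378 names was not tested.

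**Figure D3:**
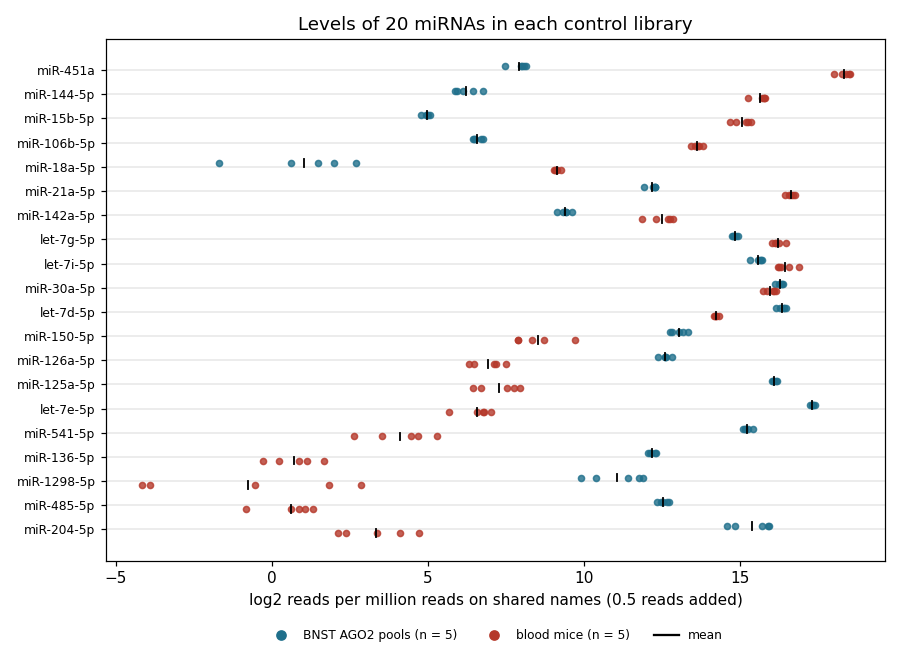
Log2 RPM (horizontal axis, 0.5 reads added) of 20 named miRNAs in each BNST AGO2 pool and each blood mouse; points are libraries and the black ticks group means, n = 5 each. The 2 groups are apart for every miRNA drawn except miR-30a-5p, from miR-451a (blood above BNST) at the top to miR-204-5p (BNST above blood) at the bottom.

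Among the shared names, let-7e-5p was the most abundant in BNST. It stood at 164133, 171351, 155571, 160565 and 164906 RPM in pools 1 to 5, rank 1 among shared names and rank 2 among all 772 BNST names. In blood it stood at 50.8, 112, 109, 131 and 94.6 RPM in mice 1 to 5, rank 71. The log2 difference was 10.75 ± 0.24, with no overlap. The other 2 miRNAs of that cluster on chromosome 17 followed it: miR-125a-5p differed by 8.83 ± 0.30 (rank 4 in BNST, 55 in blood) and miR-99b-5p by 6.99 ± 0.32 (rank 18 in BNST, 64 in blood).

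The let-7 seed family was abundant in both tissues but was made up differently. Its 9 shared names took 38.98% ± 1.72 (SD, n = 5) of the shared reads in BNST and 19.9% ± 3.12 in blood. Counted over all reads of each library, 3p strands included, the 2 shares were 19.3% ± 0.55 and 19.9% ± 3.12. That base was unlike in the 2 tissues, since 3p names took 49.7% to 52.7% of BNST reads and at most 0.229% of blood reads. The near-equal values on it are therefore not a like-for-like comparison. Within the family, let-7e-5p made up 41.9% ± 0.72 in BNST and 0.0509% ± 0.0171 in blood, whereas let-7g-5p and let-7i-5p made up 7.45% ± 0.33 and 12.5% ± 0.87 in BNST and 38.2% ± 1.67 and 45.3% ± 2.37 in blood. let-7d-5p was 21.4% ± 0.99 of the family in BNST and 9.87% ± 1.65 in blood. No BNST pool overlapped with a blood mouse in the share of shared reads of any of the 9 names. By the 4-fold rule 6 of the 9 were higher in BNST and none in blood, with a median log2 difference of 3.42; relative to the median of all names 3 were higher in BNST (let-7e-5p, let-7c-5p and let-7a-5p) and 3 in blood (let-7g-5p, let-7i-5p and miR-98-5p). The sequences above show that these members share all 7 seed bases and differ downstream. Reads of let-7a-5p, let-7c-5p and let-7f-5p are listed under numbered copies in BNST. How reads that fit several loci were assigned was not tested, so the levels of these names are uncertain.

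**Figure D4:**
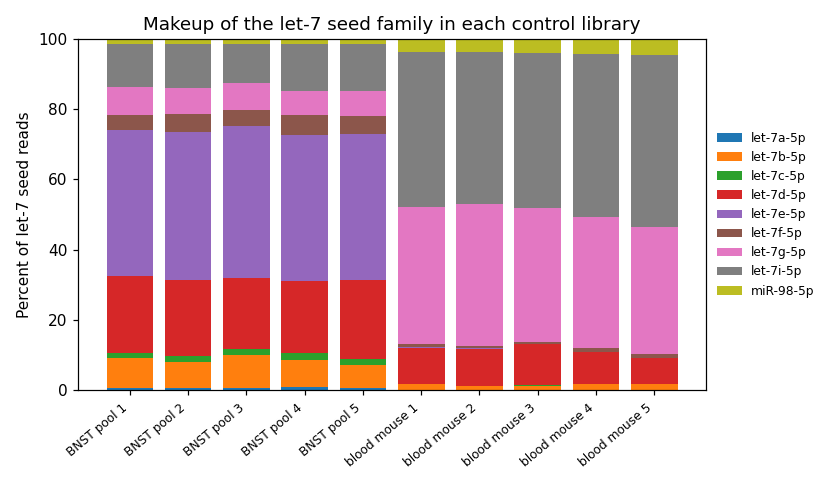
Percent of let-7 seed reads (vertical axis) taken by each of the 9 family members in each control library; each bar is 1 library and adds up to its let-7 seed reads. let-7e-5p fills 41.4% to 43.0% of every BNST pool, and let-7g-5p with let-7i-5p fill most of every blood mouse.

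The miR-30 family was abundant in both tissues. Its 6 shared names taken by name (miR-30a-5p to miR-30e-5p and miR-384-5p, which carries the same seed) took 16.5% ± 1.23 (SD, n = 5) of the shared reads in BNST and 14.3% ± 1.17 in blood. The ranges overlapped, at 14.6% to 17.9% and 13.1% to 15.8%. RefSeq held no entry for miR-30b-5p and miR-30d-5p, so the sum was set by name after the values were seen. miR-30a-5p itself ranked 3 and 5, at 71158 to 85418 RPM in BNST and 53970 to 73534 RPM in blood, where the groups overlapped, at a log2 difference of 0.31 ± 0.09. Within the family, miR-384-5p, a brain-enriched member, was higher in BNST (10.38 ± 0.75, a mean of 11 reads in blood). Seeds could be ranked only over the 190 of 224 shared names that matched RefSeq. The 34 unmatched names, miR-30d-5p and miR-143-3p among them, held 12.1% of the shared reads in BNST and 3.37% in blood and are outside these ranks. Of the 10 largest seeds of each tissue over matched names, 3 were the same, those of let-7, miR-30a-5p and miR-191-5p. Seeds among the 10 largest of BNST with the lowest shares in blood were those of miR-125a-5p (7.06% ± 0.32 against 0.0169% ± 0.0070), miR-204-5p (4.61% ± 1.80 against 0.00140% ± 0.00097), miR-541-5p (3.82% ± 0.35 against 0.00208% ± 0.00129) and miR-411-5p (2.08% ± 0.18 against 0.00502% ± 0.00327).

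miRNAs of the imprinted Dlk1-Dio3 locus, which are maternally expressed and best known from brain, were the most BNST-weighted group. Of 46 listed names, 13 were in both data sets, 32 in the BNST data only and 1 in neither. By the 4-fold rule 11 of the 13 shared names were higher in BNST and none in blood, with a median log2 difference of 9.02 against 1.63 over all names. miR-485-5p stood at 5136 to 6826 RPM in the pools and at 0.5, 2.0, 1.8, 1.5 and 2.4 RPM in mice 1 to 5 (a mean of 13.4 reads), at 11.94 ± 0.38. miR-136-5p differed by 11.46 ± 0.35 (a mean of 14.2 reads in blood). miR-541-5p stood at 35023 to 43988 RPM in the pools, rank 8, and at 6.1, 39.1, 25.6, 21.7 and 11.4 RPM in blood, at 11.11 ± 0.47. Over all reads the 45 measured names took 20.3% to 22.8% of a BNST pool, and the 13 blood names took 0.00531%, 0.0390%, 0.0244%, 0.0237% and 0.0123% of mice 1 to 5, lowest in mouse 1 and highest in mouse 2. Most of the 32 names in the BNST data only were 3p, an arm nearly missing from the blood names, so these shares did not cover the same strands. Of the shared reads, the 13 shared names took 7.40% to 8.67% in BNST and 0.00531% to 0.0390% in blood.

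The locus had 2 shared names that were not called. miR-299a-5p had a mean of 9.6 reads in BNST and 11.2 in blood, with overlapping groups. miR-379-5p stood at 20.7, 11.1, 26.5, 12.3 and 22.4 RPM in pools 1 to 5 and at 22.8, 183, 113, 119 and 71.7 RPM in mice 1 to 5, so that blood mouse 1 lay within the BNST range and the other 4 mice above it. Its log2 difference was -2.22 ± 0.57, and relative to the median, -3.86, it was called higher in blood. Its neighbour miR-411-5p, 1125 bases away on chromosome 12 and close to it in sequence, went the other way, at 18898 to 22818 RPM in BNST and 12.5 to 93.6 RPM in blood (9.02 ± 0.53). The pair is shown for that contrast, with seeds in capitals, from chr12:109709065-109709085 and chr12:109710190-109710210 (GRCm38.p6, plus strand).
miR-379-5p: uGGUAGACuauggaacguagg
miR-411-5p: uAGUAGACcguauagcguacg

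**Figure D5:**
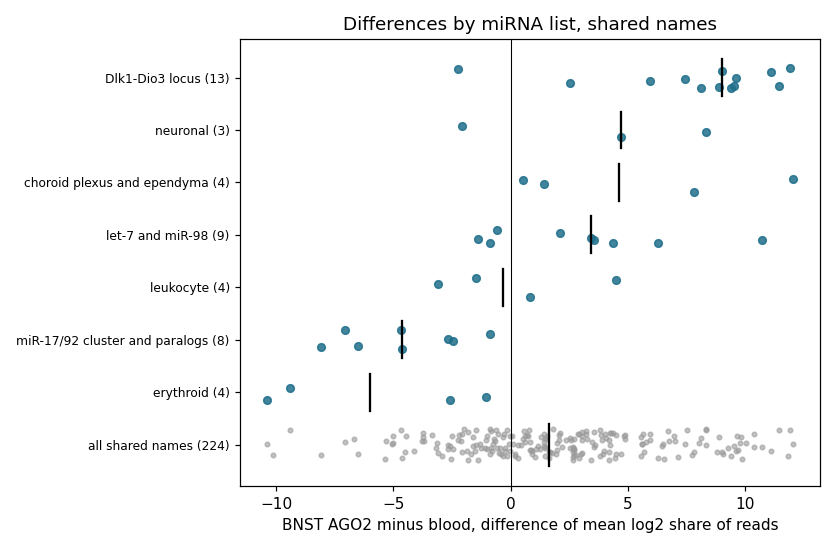
Difference of mean log2 share of reads, BNST AGO2 minus blood (horizontal axis), for the shared members of 7 lists and for all 224 shared names; each point is a miRNA name, spread vertically for legibility, and the black bars are medians. The Dlk1-Dio3 members lie around 9.02 with 2 apart, the red cell and miR-17/92 members lie below 0, and the median of all names is 1.63.

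miR-204-5p, which is highly expressed in choroid plexus and retinal pigment epithelium, had the largest difference of all. It stood at 62492, 29015, 53438, 61011 and 24594 RPM in pools 1 to 5 and at 4.3, 25.9, 17.2, 10.3 and 5.1 RPM in mice 1 to 5, at 12.06 ± 0.57. Pools 2 and 5 were lower than the other 3. miR-1298-5p, hosted by Htr2c, a gene strongly expressed in choroid plexus, was also lowest in pools 2 and 5: 3445, 1336, 2730, 3765 and 954 RPM in pools 1 to 5. It had 0 reads in blood mice 2 and 5 (a mean of 19 reads in blood), and its difference of 11.85 ± 1.49 carried the widest error among the 8 most BNST-weighted names. Those 8 also included miR-532-5p, which is in none of the lists and had a mean of 10.4 reads in blood. miR-34c-5p, known from ciliated cells such as ependyma, was at 8300.5, 5725, 4326, 7035 and 2002 RPM in the pools, lowest in pools 3 and 5 (7.83 ± 0.66). Of the 8 choroid plexus and ependyma names listed, 4 were shared, 2 of them higher in BNST, near the 45.1% of all shared names, and none in blood, with a median log2 difference of 4.63. The list took 3.57%, 1.73%, 2.98%, 3.44% and 1.28% of all reads of pools 1 to 5. These values moved with the pool more than most: the median SD of log2 share over the 77 names with 100 or more reads in both tissues was 0.159 between pools. Whether choroid plexus or ependyma entered the dissected BNST was not tested. Here, as for every list in these bulk samples, fewer cells of a type and less RNA per cell cannot be told apart.

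Of 20 neuronal names listed, 15 were in the BNST data only, 3 in both and 2 in neither, and the list took 5.12% to 6.80% of all BNST reads and 0.00214% to 0.00397% of all blood reads. miR-128-3p (a mean of 106499 reads), miR-132-3p (71916), an activity-regulated neuronal miRNA, and miR-383-5p (21937) carried most of the BNST share. miR-128-3p and miR-132-3p are 3p names, an arm nearly missing from the blood names, so the 2 list shares did not cover the same strands. Of the shared reads, the 3 shared names took 0.0361% to 0.0575% in BNST and 0.00214% to 0.00397% in blood. 2 defining markers of neural tissue were nearly absent from the pools: miR-124-3p had 0 to 7 reads (a mean of 1.4) and miR-9-5p had 0 to 27 reads (a mean of 13.2). Of the 3 shared names, miR-708-5p (8.34 ± 0.72, a mean of 13.8 reads in blood) and miR-7b-5p (4.70 ± 0.24, a mean of 24.8) were higher in BNST and miR-7a-5p was called higher in blood (-2.06 ± 0.64, a mean of 12.2 reads in BNST). The oligodendrocyte names were 3 in the BNST data only and 1 in both, miR-338-5p, which was higher in BNST (5.60 ± 0.30).

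miR-124-3p, miR-7a-5p and several other low names are encoded at more than 1 locus, and the BNST data list their loci as numbered copies. Of the 25 names with a copy suffix, 9 had a mean under 20 reads in BNST, including miR-26a-5p, miR-30c-5p and miR-19b-3p beside those named. Others were high, such as miR-128-3p, where the copies had means of 97648 and 8850 reads although their mature strands carry one name. The share of names under 20 reads was 36% with a copy suffix and 38.4% without. The names without a suffix were not matched to the others in expected level. These shares therefore cannot show whether names with a copy suffix lost reads. In blood, where no copies are listed, miR-16-5p stood at 454 to 773 RPM, rank 35, and at 3.0 to 29.6 RPM in BNST, rank 152. How reads that fit several loci were assigned was not tested, and levels of these names are uncertain.

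Leukocyte miRNAs were split. Of 9 names listed, 4 were shared, 4 were in the BNST data only and 1, miR-223-5p, in the blood data only. Of the 4 shared names 1 was higher in BNST, 1 higher in blood and 2 neither, with a median log2 difference of -0.33. miR-142a-5p, a pan-leukocyte miRNA, stood at 3672 to 7408 RPM in blood and 561 to 783 RPM in BNST (-3.10 ± 0.20). miR-150-5p, known from mature lymphocytes, was higher in BNST, at 6985, 8410, 9280, 7201 and 10341 RPM in the pools and 235, 847, 425, 237 and 322 RPM in the mice, at 4.52 ± 0.36. miR-155-5p (-1.49 ± 0.32) and miR-146a-5p (0.83 ± 0.29), both induced in activated immune cells, were not called, although relative to the median miR-155-5p was called higher in blood. The defining 3p marker of myeloid cells, miR-223-3p, had a mean of 8.8 reads in BNST. The leukocyte list took 0.474% to 0.660% of all BNST reads and 0.482% to 0.775% of all blood reads. These shares did not cover the same strands: the 4 names in the BNST data only, miR-223-3p and miR-142a-3p among them, were all 3p. That arm was nearly missing from the blood names, so 3p reads of these hairpins could not count in blood.

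miR-126a-5p, of endothelial cells and platelets, was higher in BNST, at 5271 to 7180 RPM against 78.9 to 179 RPM (5.69 ± 0.23). miR-122-5p, the main liver miRNA, was higher in blood, at 42.7 to 148 RPM against 0 to 4.98 RPM, a mean of 5.4 reads in BNST (-5.01 ± 0.81). Of 6 muscle names, 2 were in the BNST data only, at means of 8.2 and 9.4 reads, and 4 in neither.

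Of the 548 names in the BNST data only, 356 were 3p, 163 were 5p and 29 had no arm, and for 124 of the 3p names the 5p strand of the same hairpin was among the shared names. Together these 548 names took 48.9% to 52.5% of the BNST reads. The highest was miR-434-3p, of the Dlk1-Dio3 locus, at 8.38% ± 0.56 of all reads (SD, n = 5), rank 1 of 772. It was followed by miR-22-3p (6.97% ± 0.54), miR-92b-3p (4.20% ± 0.52), miR-128-3p (2.80% ± 0.46) and miR-132-3p (1.89% ± 0.22). Counted by hairpin and not by strand, 238 hairpins were in both data sets, 313 in the BNST data only and 56 in the blood data only. Presence in a data set followed the authors' low-count filter over all its groups, stressed mice included, and not these controls alone. The filter asked for fewer samples in the AGO2 data than in blood. The 75 names in the blood data only, of which miR-12186-5p and miR-12186-3p had 0 reads in all 5 control mice, took at most 0.0446% of a blood library. The highest were miR-196b-5p, from a Hox cluster and known from blood-forming cells (109 ± 27.3 in every 1000000 reads), miR-503-5p (70.2 ± 13.3), miR-5123 (35.8 ± 4.56), miR-3058-5p (24.6 ± 4.23) and miR-223-5p (14.5 ± 3.64).

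The balance of the arms could be tested in the 3 hairpins with both strands in both data sets, since a ratio within a library does not depend on its total. It can still depend on tissue, AGO2 capture and library kit, which differed together, so their parts cannot be told apart. Why the blood data nearly lacked 3p names was not tested, so blood 3p reads are uncertain. miR-664 had 629 to 838 5p reads and 633 to 976 3p reads in the pools, a log2 ratio of 5p over 3p of -0.06 ± 0.14 (SD, n = 5). In blood it had 12 to 57 5p reads and 153 to 268 3p reads, a log2 ratio of -2.80 ± 0.97, and the groups did not overlap. The difference was 2.74 ± 0.43 (SE; adjusted p = 5.97e-05, limma over 3 hairpins), and the exact two-sided permutation test gave p = 0.00794, the lowest that 5 against 5 allows (0.0238 adjusted over 3). miR-143 was nearly all 3p in both tissues, with 5 to 23 5p reads in the pools and 1 to 16 in the mice. Its log2 ratio was -12.29 ± 0.90 in BNST and -10.85 ± 0.59 in blood (difference -1.44, limma adjusted p = 0.0307; exact permutation p = 0.0159, 0.0238 adjusted). miR-299a differed by -1.72 (limma adjusted p = 0.0480) on 2 to 21 5p reads in the pools and 0 to 28 in the mice, and the exact permutation p was 0.0952. All 3 of 3 hairpins thus passed the fitted test (100%), too few for a background; the calls of miR-143 and miR-299a were lost when single libraries were left out. In that order, without pool 1 their adjusted p (limma) was 0.05145 and 0.08689, without pool 2 0.07849 and 0.08055, without blood mouse 2 0.0773 and 0.118, without blood mouse 3 0.0517 and 0.104, and without blood mouse 4 0.0560 and 0.0822. miR-299a alone was lost without pool 3 (0.109), pool 5 (0.0767) or blood mouse 1 (0.0941). miR-664 was called in every one of these fits.

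U was the first base of 44.7% of the 85 matched names higher in BNST and of 44.8% of the 29 higher in blood. For A the shares were 32.9% and 27.6%, for C 10.6% and 20.7% (9 and 6 names) and for G 11.8% and 6.90% (10 and 2 names). By reads, strands with a 5′ U took 70.4% to 74.1% of the matched shared reads in BNST and 46.2% to 56.6% in blood. Without miR-451a, which starts with A, the blood share was 74.1% to 77.7%. The median GC content was 47.6% for names higher in BNST, 41.7% for names higher in blood and 45.5% over all 190, and the rank correlation of GC content with the log2 difference across names was 0.21 (n = 190). Replicates spread more in blood, where 1 library is 1 mouse, than in BNST, where it is a pool of 3: over the 77 names with 100 or more reads in both tissues the median SD of log2 share was 0.252 in blood and 0.159 in BNST, and 53 of the 77 had the larger SD in blood.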

How the data were processed

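Small RNA was sequenced from 5 AGO2 pulldown pools of BNST and 5 blood samples of B6 controls; the mRNA tables were not used. Per the study's methods the authors trimmed adapters, quantified miRBase names with the miRDeep2 quantifier and bowtie (1.1.1 in the submitters' processing notes; build GRCm38), dropped names with low counts and normalized each data set on its own with voom. They then adjusted the AGO2 miRNA data for surrogate variables with ComBat. The deposited values are log2 counts per 1000000 reads. Whole reads were recovered from them in each column: 100% of values lay within 0.0001 of a whole number of reads. The reads used here are therefore without the surrogate variable adjustment. From these reads, shares of each library were computed, with numbered copies summed and 0.5 reads added on the log2 scale.

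Groups came from the labels, and 0 value columns lacked a sample. Levels were compared by rank, non-overlap and a 4-fold difference, without a test. Arm ratios were tested with limma 3.58.1 (R 4.3.3, moderated with a trend, Benjamini-Hochberg over 3 hairpins, adjusted p under 0.05 and a log2 difference of at least 1) and with the exact permutation test (scipy 1.17.1). Both set the difference against the spread between pools and between mice. The limma p-values also rest on variances moderated over only 3 hairpins. Scripts were tested on simulated data. Intervals were left out, since PCR reads without molecular identifiers are not independent molecules.

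The rule for named miRNAs took the 10 highest of each tissue, the 8 largest differences each way among names with at least 100 reads on average in a tissue and no overlap, the 5 highest in 1 data set only, list members by count with single values at 100 or more reads, the tested hairpins and the 10 largest seeds of each tissue. Other miRNAs given with values (miR-379-5p, miR-411-5p, miR-99b-5p, miR-378a-3p, miR-12186-5p, members of the let-7, miR-30, miR-15/16 and miR-17/92 families, near-absent markers and copies) were chosen after their values were seen. The members and lists were chosen with earlier results of these data known. Alternatives covered copies, read minimums, scaling, thresholds, single libraries and the title prefixes of the blood libraries.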

Additional observations from a re-analysis of the deposited data

Results flagged for a closer look

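In 9 of the 108 groups of 5 libraries examined, 1 library lay far from the other 4 by Dixon's criterion (0.71 of the range for 5 values), which chance alone gives in about 1 of 20 groups. Among log2 levels (log2 RPM on shared names), BNST pool 1 was the lowest for miR-451a (7.46, the others 7.98 to 8.14) and for miR-21a-5p (11.91, the others 12.20 to 12.28), BNST pool 3 for miR-122-5p (-1.70, at 0 reads, the others 1.25 to 2.40), BNST pool 4 for miR-7a-5p (0.13, the others 2.71 to 3.73) and blood mouse 2 for miR-144-5p (15.25, the others 15.69 to 15.80).

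Among shares of the shared reads, blood mouse 2 was the highest for the miR-17/92 list (6.25%, the others 5.95% to 6.02%) and BNST pool 5 for the Dlk1-Dio3 list (8.67%, the others 7.40% to 7.73%). Blood mouse 1 had the highest share of reads on shared names (99.97%, the others 99.96%). In the arm ratios, blood mouse 5 was the lowest for miR-299a (log2 ratio -4.86, the others -1.49 to -0.36), where it had 0 5p reads. None of the libraries named here stood apart in more than 2 of the 9 cases.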

How the results depend on the processing

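The scale on which the 2 data sets are compared moved the counts most. The names higher in blood were 54 on the deposited log2 CPM, 65 relative to the median difference, 64 with the 10 most abundant names of either tissue left out of the total and 17 (of 134) among names with 20 reads in both tissues, against 33; those higher in BNST were 82, 71, 72 and 69, against 101. The median log2 difference was 0.59 on the deposited scale, 0.057 without the most abundant names and 2.10 among names with 20 reads, where the median rank correlation was 0.372. No called name among those reported changed direction under any setting. As shares of all reads of each library, BNST values were 0.0419% for the red cell list, 21.8% for the Dlk1-Dio3 list, 1.14% for the miR-17/92 list and 19.3% for the let-7 seed; among names with 20 reads in both tissues the Dlk1-Dio3 list was 6.73% of the shared reads. By hairpin, 313 were in the BNST data only.

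Leaving out 1 library gave 99 to 104 names higher in BNST and 32 to 37 higher in blood, a median rank correlation of 0.452 to 0.476, and 1 to 3 arm ratio calls. With the 3 blood mice of title prefix EC4 alone the counts were 101 and 35, with the 2 of prefix EC3 104 and 33; the arm test called 1 hairpin with EC4. The arm test was not run among names with 20 reads in both tissues, since 1 hairpin was left. A pseudocount of 5 reads and the highest copy in place of the sum kept each count within 1.5 times. No paired analysis was possible because the BNST pools and the blood mice came from different animals and the replicate numbers of the blood mice follow accession order. Depth limits names under 20 reads, 60 of 224 in BNST and 52 in blood.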
